A study of Mus musculus with 6 samples.

Results

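Nrf2, the product of Nfe2l2, is a transcription factor that binds antioxidant response elements as a dimer with a small Maf protein. Keap1 holds Nrf2 in the cytoplasm and passes it to a Cul3 ubiquitin ligase, so that Nrf2 protein is normally kept low by degradation. Electrophiles and oxidants modify Keap1, Nrf2 accumulates, and genes for glutathione synthesis, thioredoxin recycling, quinone reduction and heme breakdown are transcribed. Because this control acts on the protein, the mRNA level of Nfe2l2 does not report the activity of Nrf2.

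Described here are 10 genes of this antioxidant response, taken by symbol from a table of 43074 gene symbols: the regulator pair Nfe2l2 and Keap1, and the 8 target genes Hmox1, Nqo1, Gclc, Gclm, Gsr, Txnrd1, Prdx1 and Srxn1. All 10 passed the filter on low counts and were among the 17433 genes tested. The cells were C2C12, a wild-type mouse myoblast line derived from skeletal muscle that stops dividing and fuses into myotubes when serum is lowered. Day 0 cells were untreated and came from growth medium with 10% fetal bovine serum. Day 4 cells had spent 4 days in a differentiation medium holding 5% horse serum with either DMSO, the vehicle, or 1 mM 4-phenylbutyric acid (4-PBA), a short aromatic fatty acid used to relieve protein misfolding that also inhibits histone deacetylases. All 3 groups carried the same genotype and the same batch number, and each had 2 RNA sequencing libraries. The labels do not say whether these came from separate cultures, so p-values measure only the spread between libraries. Day 4 differed from day 0 in medium, serum and time, and in vehicle or drug. These cannot be told apart.

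Libraries held 47908926 to 74697397 counts, and levels are given as CPM (counts scaled to library size, with TMM factors). The lowest raw count of any of the 10 genes in any library was 335, for Nqo1. The summed level of 10 myoblast and myotube markers was 1396 to 1405 CPM at day 0, 7312 to 7531 CPM in the DMSO libraries and 7118 to 7218 CPM in the 4-PBA libraries. The muscle identity of the cells was present in every library, and the part of this marker shift in the results was not tested. All 5 blood and macrophage markers and all 5 adipocyte markers stayed under 1 CPM in every library. The endothelial sum reached at most 2.96 CPM and the epithelial sum at most 5.66 CPM. Of the glia and neuron list, Sox10 was at 0 throughout, and the list's sum of 129 to 174 CPM was nearly all Tubb3, which ranged from 125 to 171 CPM. In bulk libraries, fewer cells of a type and less RNA per cell cannot be told apart.

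Promoter sequence is shown first, because the response is defined by an element in DNA. RefSeq windows (build GRCm38.p6, from 250 bases before to 50 bases after a start site) were given for 7 of the 10 genes, in 9 windows, since Txnrd1 had 3 start sites. Hmox1, Gclc and Gsr had no entry. The antioxidant response element core, TGACNNNGC, was searched on both strands. It was found in 5 of the 9 windows, of 5 different genes, against 12.4% of all 32851 windows and 13.9% of the 15575 windows of tested genes. The genes were picked as members of this response, and 3 of the windows belong to Txnrd1. The shares are therefore a description and no test. Among tested genes the share was 13.9% for those called lower and 13.5% for those called higher at day 4 with DMSO than at day 0. A second motif, the NF-E2-type element TGANTCAGC, which can fall on the same bases as the first, was chosen after the windows had been seen and in place of the shorter AP-1 core TGANTCA. It was found in 2 of the 9 windows against 1.19% of all windows, and the AP-1 core in the same number against 7.81%. The 250 bases before the start site follow for the 5 windows with a match and for Nqo1, the gene that changed most. Each runs 5′ to 3′ on the strand of its gene, and capitals mark a match to either of the first pair of motifs, read from the other strand where the match lies there.
Nfe2l2, chr2:75704664-75704913, minus strand: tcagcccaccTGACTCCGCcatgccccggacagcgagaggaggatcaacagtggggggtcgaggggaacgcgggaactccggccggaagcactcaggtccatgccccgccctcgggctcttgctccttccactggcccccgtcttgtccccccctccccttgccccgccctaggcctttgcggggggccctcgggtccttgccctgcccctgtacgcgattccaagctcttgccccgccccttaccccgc
Nqo1, chr8:107403206-107403455, minus strand: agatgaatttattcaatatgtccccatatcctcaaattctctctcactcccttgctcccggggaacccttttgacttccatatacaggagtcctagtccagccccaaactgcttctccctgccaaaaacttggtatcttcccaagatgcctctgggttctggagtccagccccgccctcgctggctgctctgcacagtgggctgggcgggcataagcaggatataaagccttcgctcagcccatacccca
Gclm, chr3:122245307-122245556, plus strand: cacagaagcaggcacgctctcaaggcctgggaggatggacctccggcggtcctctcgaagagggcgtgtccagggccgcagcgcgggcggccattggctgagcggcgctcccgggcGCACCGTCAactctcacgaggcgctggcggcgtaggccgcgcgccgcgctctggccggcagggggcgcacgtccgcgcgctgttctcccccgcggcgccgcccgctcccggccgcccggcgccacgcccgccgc
Txnrd1, start 2, chr10:82858956-82859205, plus strand: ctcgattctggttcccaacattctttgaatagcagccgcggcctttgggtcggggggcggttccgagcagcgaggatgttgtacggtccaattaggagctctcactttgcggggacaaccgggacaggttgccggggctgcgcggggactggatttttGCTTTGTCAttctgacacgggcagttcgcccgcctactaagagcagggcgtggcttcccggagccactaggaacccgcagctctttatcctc
Srxn1, chr2:152105274-152105523, plus strand: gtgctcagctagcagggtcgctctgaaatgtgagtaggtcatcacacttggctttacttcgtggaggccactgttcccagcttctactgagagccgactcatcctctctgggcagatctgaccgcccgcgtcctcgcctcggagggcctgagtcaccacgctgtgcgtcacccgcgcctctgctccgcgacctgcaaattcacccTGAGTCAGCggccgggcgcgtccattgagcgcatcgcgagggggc
Prdx1, chr4:116685349-116685598, plus strand: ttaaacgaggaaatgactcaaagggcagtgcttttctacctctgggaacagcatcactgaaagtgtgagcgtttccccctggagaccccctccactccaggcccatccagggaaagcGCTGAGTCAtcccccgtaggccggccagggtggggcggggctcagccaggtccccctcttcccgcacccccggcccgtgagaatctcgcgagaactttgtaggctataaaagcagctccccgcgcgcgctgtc

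Positions are counted from the start site, with -1 the base just before it. In Prdx1 the match lay at -133 to -125 on the opposite strand and satisfied both motifs. Srxn1 had the NF-E2-type element at -45 to -37 on its own strand and a core match after the start site, at 29 to 37 on the opposite strand. The core match of Gclm lay at -134 to -126 and that of Txnrd1 start 2 at -92 to -84, both on the opposite strand. Nfe2l2 itself carried a core match at -240 to -232. The windows of Keap1, Nqo1 and Txnrd1 starts 1 and 3 held neither motif within these bases. A match is a run of letters and not a measured binding site.

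**Figure D1:**
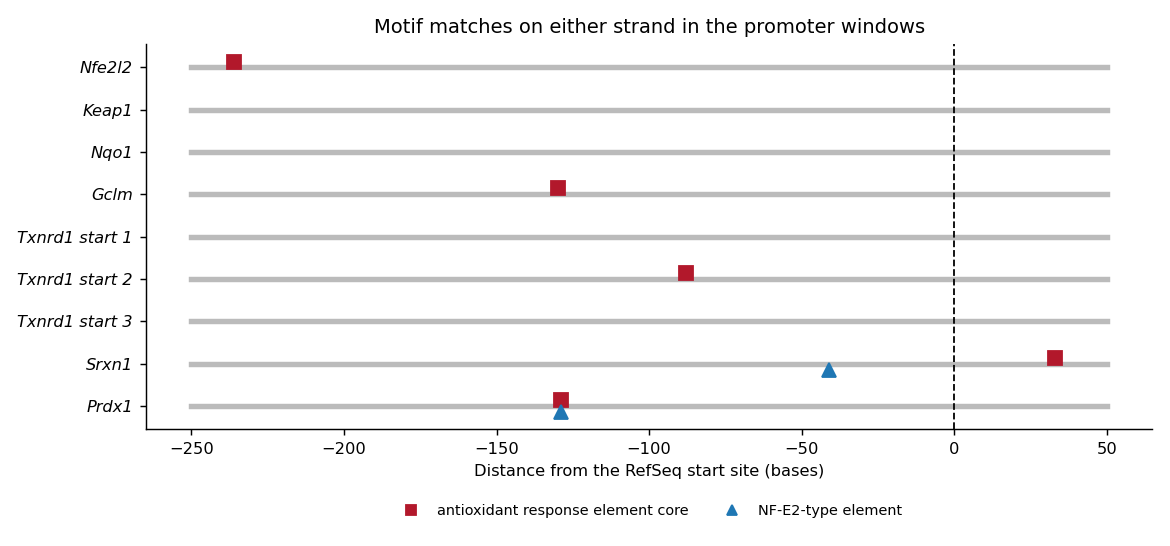
Motif matches in the 9 RefSeq promoter windows of 7 genes, by distance from the start site in bases (x axis). Squares mark the antioxidant response element core and triangles the NF-E2-type element, on either strand; 5 windows hold the core, and in Prdx1 both marks fall on the same bases.

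The first comparison was DMSO day 4 against day 0, the course of differentiation without drug. Of the 10 genes, 9 were called lower and 0 higher at an adjusted p under 0.05; among all tested genes 66.3% were called, 32.6% lower and 33.8% higher. The 8 targets fell to between 0.107 (Nqo1) and 0.643 (Hmox1) of their day 0 level, whereas the mRNA of Nfe2l2 stood at 0.949 of its day 0 level and did not pass the test. The median log2 fold change of the 10 genes was -0.82, against 0.023 over all tested genes. In every one of the 10 the libraries of the 2 groups did not overlap, as was the case for 81.9% of all tested genes.

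Nfe2l2 mRNA had the smallest change of the 10 against day 0. It stood at 129 and 133 CPM at day 0, 124 and 125 CPM in the DMSO libraries and 118 and 112 CPM in the 4-PBA libraries. The libraries ordered by group without overlap, but the steps were small. Its log2 fold change from day 0 to DMSO was -0.076 (SE 0.036, adjusted p = 0.0609). With DESeq2 size factors it was -0.085 with an adjusted p of 0.0345, so that this call depended on the scaling; over the 14 alternatives the adjusted p ran from 0.0104 to 0.352. From day 0 to 4-PBA it was -0.19 (SE 0.036, adjusted p = 2.42e-05). Keap1, the adaptor that targets Nrf2 for degradation, had 67.5 and 67.1 CPM at day 0, 47.5 and 47.7 CPM in the DMSO libraries and 51.5 and 51.4 CPM in the 4-PBA libraries. It fell at day 4 in either medium, with log2 fold changes of -0.50 (SE 0.045, adjusted p = 5.24e-12) with DMSO and -0.39 (SE 0.045, adjusted p = 2.26e-09) with 4-PBA. In GENCODE M21, 510 of the 4693 exon bases of Keap1 overlap Gm16754 on the opposite strand. Whether counting used strand is not given in the sources used here, so the value of Keap1 is uncertain to that extent. At day 0 the ratio of Nfe2l2 to Keap1 CPM per kilobase of exon was 2.37 and 2.44. It was 3.23 in each DMSO library, and 2.83 and 2.70 with 4-PBA. Exon length here joins the exons of all annotated transcripts of a gene. Which transcripts the cells expressed is not known, so levels per kilobase compare genes only roughly.

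Nqo1, a flavoprotein that reduces quinones and is the textbook reporter of Nrf2 activity, changed most of the 10. It had 50.3 and 50.6 CPM at day 0, 5.71 and 5.16 CPM in the DMSO libraries and 5.41 and 5.39 CPM in the 4-PBA libraries. The day 4 libraries lay together far under the day 0 libraries. Its log2 fold change was -3.22 with DMSO (SE 0.078, adjusted p = 2.18e-28) and -3.22 with 4-PBA (SE 0.079, adjusted p = 3.16e-28). Only 118 of the 17433 tested genes had a lower fold change with DMSO. Hmox1, the inducible heme oxygenase that opens the heme ring to biliverdin, iron and carbon monoxide, was far less affected. It had 32.9 and 31.3 CPM at day 0, 20.1 and 21.03 CPM in the DMSO libraries and 20.1 and 19.1 CPM in the 4-PBA libraries. The log2 fold change was -0.64 (SE 0.065, adjusted p = 1.02e-10) with DMSO and -0.71 (SE 0.066, adjusted p = 9.90e-12) with 4-PBA. The 95% interval of Nqo1 with DMSO, -3.38 to -3.06, and that of Hmox1, -0.77 to -0.51, lay far apart.

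Glutathione is made by glutamate-cysteine ligase, a dimer of the catalytic subunit Gclc and the modifier subunit Gclm, and its oxidised form is reduced again by Gsr, glutathione reductase. Gclm mRNA stood at 72.9 and 75.9 CPM at day 0, 30.4 and 30.8 CPM in the DMSO libraries and 28.9 and 31.9 CPM in the 4-PBA libraries. Gclc had 67.9 and 66.4 CPM at day 0, 38.2 and 37.2 CPM in the DMSO libraries and 39.3 and 41.7 CPM in the 4-PBA libraries. The modifier subunit fell more than the catalytic one, by 1.28 (SE 0.052) against 0.83 (SE 0.049) on the log2 scale with DMSO, and their 95% intervals, -1.39 to -1.18 and -0.93 to -0.73, did not overlap. The adjusted p was 1.04e-21 for Gclm and 4.40e-17 for Gclc. The ratio of Gclc to Gclm mRNA per kilobase of exon rose accordingly from 1.56 and 1.46 at day 0 to 2.10 and 2.02 in the DMSO libraries and 2.27 and 2.19 in the 4-PBA libraries. The level of Gclm carries a limit: 244 of its 6291 exon bases overlap Gm6061 on the same strand and 296 overlap Gm17494 on the other. Gsr dropped from 88.7 and 88.8 CPM at day 0 to 31.8 and 32.9 CPM with DMSO, and had 32.3 and 33.3 CPM with 4-PBA. Its log2 fold changes were -1.45 (SE 0.048, adjusted p = 1.78e-24) with DMSO and -1.44 (SE 0.048, adjusted p = 3.22e-24) with 4-PBA. The interval of Gsr overlapped that of Gclm, and the difference between this pair was not tested.

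The thioredoxin branch uses Txnrd1, the cytosolic selenoprotein that reduces thioredoxin, Prdx1, a peroxiredoxin that reduces peroxides, and Srxn1, sulfiredoxin, which restores peroxiredoxins that have been overoxidised. Txnrd1 had 437 and 446 CPM at day 0, 258 and 249 CPM in the DMSO libraries and 252 and 256 CPM in the 4-PBA libraries. Prdx1 had 436 and 452 CPM at day 0, 279 and 286 CPM in the DMSO libraries and 289 and 282 CPM in the 4-PBA libraries. These abundant mRNAs fell moderately, by 0.80 (SE 0.030, adjusted p = 1.56e-22) and 0.65 (SE 0.031, adjusted p = 6.50e-20) on the log2 scale with DMSO. Srxn1 fell from 128 and 127 CPM at day 0 to 35.3 and 32.6 CPM with DMSO, and had 34.9 and 35.0 CPM with 4-PBA. Its log2 fold change with DMSO was -1.91 (SE 0.046, adjusted p = 2.07e-28). The repair enzyme thus lost a larger share of its mRNA than its substrate did. The ratio of Srxn1 to Prdx1 per kilobase of exon was 0.316 and 0.304 at day 0. It was 0.137 and 0.123 in the DMSO libraries, and 0.130 and 0.134 in the 4-PBA libraries. The reductases diverged in the same way, since the ratio of Gsr to Txnrd1 per kilobase went from 0.522 and 0.512 to 0.317 and 0.340 in the DMSO libraries and was 0.329 and 0.334 in the 4-PBA libraries.

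**Figure D2:**
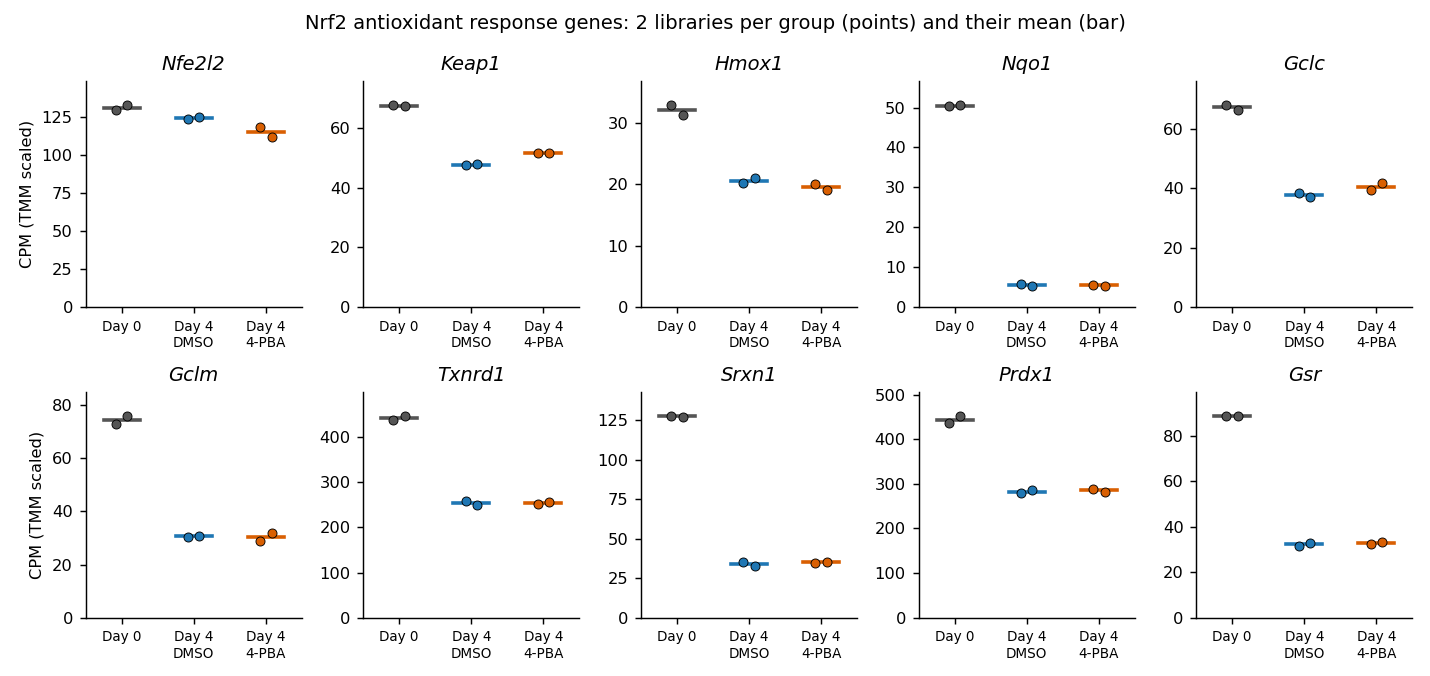
CPM after TMM scaling (y axis, starting at 0, a different scale in each panel) of the 10 genes in the 2 libraries of each group; points are libraries and bars their mean. All day 4 libraries lie under the day 0 libraries, and for Nqo1 they lie between 5.16 and 5.71 CPM against 50.3 and 50.6 CPM.

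The order of the changes with DMSO, from the largest fall, was Nqo1, Srxn1, Gsr, Gclm, Gclc, Txnrd1, Prdx1, Hmox1, Keap1 and Nfe2l2. Neighbours whose 95% intervals overlapped were Gsr and Gclm, Gclc and Txnrd1, Prdx1 and Hmox1, and Hmox1 and Keap1. Overlap alone does not decide an order, and differences between genes were not tested. The order of levels per kilobase of exon changed with it. These levels rest on the joined exons of all annotated transcripts, so the places of different genes are approximate. At day 0 Prdx1 led with 146 ± 3.74 CPM per kilobase (SD, n = 2), ahead of Txnrd1 with 62.4 ± 0.88, Srxn1 with 45.2 ± 0.10, and Nfe2l2 with 34.5 ± 0.64. Nqo1 with 32.5 ± 0.13 and Gsr with 32.2 ± 0.036 differed by little more than their spread, and Hmox1 with 18.3 ± 0.65 and Gclc with 17.8 ± 0.28 by less than theirs. Keap1 and Gclm came last, with 14.4 ± 0.062 and 11.8 ± 0.34. In the DMSO group Prdx1 with 92.8 ± 1.60 and Txnrd1 with 35.8 ± 0.87 still led. Nfe2l2 with 32.8 ± 0.16 came next. Srxn1 with 12.03 ± 0.68, Hmox1 with 11.8 ± 0.36 and Gsr with 11.8 ± 0.30 did not differ beyond their spread, nor did Keap1 with 10.2 ± 0.040 and Gclc with 10.0 ± 0.19. Gclm with 4.86 ± 0.048 came ahead of Nqo1, which moved from the middle to the lowest place with 3.50 ± 0.25 CPM per kilobase.

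The comparison of 4-PBA day 4 with day 0 uses the same day 0 libraries, so its values stand beside those above and are no second test of them. All 10 genes were called lower, among them Nfe2l2; of all tested genes 65.6% were called, 32.4% lower and 33.2% higher. The median log2 fold change of the 10 was -0.76, and all 10 had groups that did not overlap, against 81.8% of all tested genes. Srxn1 had a log2 fold change of -1.87 (SE 0.046), Gclm of -1.29 (SE 0.052), Txnrd1 of -0.80 (SE 0.030), Gclc of -0.73 (SE 0.049) and Prdx1 of -0.64 (SE 0.031).

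The comparison between the drug and its vehicle at day 4 asks what the drug changed in differentiating cells. Among the 10 genes 0 were called with edgeR, where 4.9% of all tested genes were called, 2.78% lower and 2.13% higher. limma-voom and the DESeq2 Wald test also called 0, and at an unadjusted p under 0.05 edgeR gave 3, namely Nfe2l2, Keap1 and Gclc. The median log2 fold change of the 10 was 0.011, against 0.0021 over all tested genes. Groups did not overlap for 4 of the 10, Nfe2l2, Keap1, Hmox1 and Gclc, a share near the 45.5% of all tested genes. The 95% intervals differed in width among the 10 genes, and the widest ends over all of them were -0.21 and 0.21.

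The estimates were as follows, all as 4-PBA minus DMSO on the log2 scale. Nfe2l2 had -0.11 (SE 0.036, adjusted p = 0.0665), and its 4-PBA libraries at 118 and 112 CPM both lay under the DMSO libraries. This value passed the threshold with the stricter filter on low counts (adjusted p = 0.0443) and without DMSO replicate 1 (adjusted p = 0.0466), within a range of 0.0443 to 0.587 over the 14 alternatives. Keap1 had 0.11 (SE 0.046, adjusted p = 0.178) and Gclc 0.10 (SE 0.050, adjusted p = 0.281), with both 4-PBA libraries above both DMSO libraries in each case. The inhibitor and its target thus had estimates of opposite sign, neither of which passed the test. Hmox1 had -0.073 (SE 0.067, adjusted p = 0.661). For the remaining 6 genes the estimates lay between -0.0097 for Gclm and 0.045 for Srxn1, with adjusted p-values from 0.731 to 0.989. The 95% interval of Nqo1, the gene with the fewest counts, was -0.19 to 0.19, and that of Txnrd1 was -0.057 to 0.067.

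**Figure D3:**
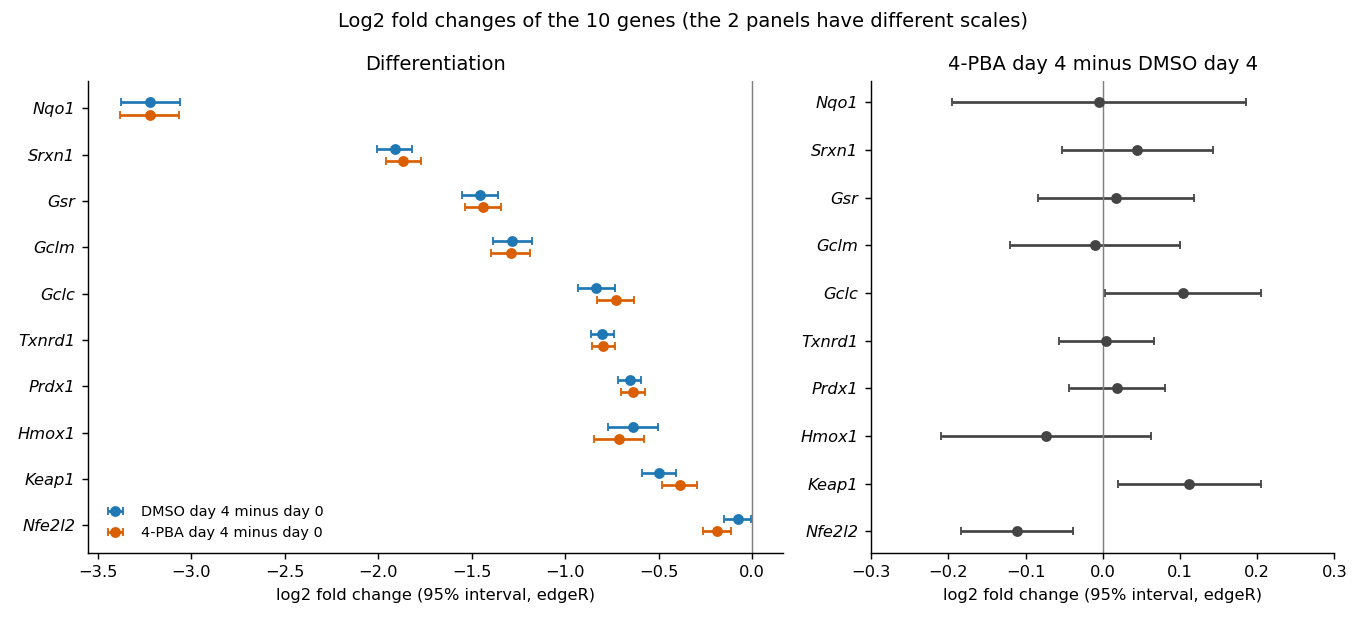
Log2 fold changes of the 10 genes with 95% intervals from edgeR (x axis): day 4 against day 0 on the left, with DMSO and with 4-PBA sharing the day 0 libraries, and 4-PBA against DMSO on the right, on a narrower scale. On the left the estimates run from -3.22 for Nqo1 to -0.076 for Nfe2l2; on the right all intervals stay between -0.21 and 0.21.

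Beyond these 10, 126 other genes of the pathway were listed by role in 8 lists, chosen with earlier results of these data known. Of the 126, 125 were in the table and 118 were tested. Between DMSO and day 0, 94 of the 118 (79.7%) were called, 67 lower and 27 higher, beside 66.3% of all tested genes, 32.6% lower and 33.8% higher. Between 4-PBA and day 0, 88 (74.6%) were called, 65 lower and 23 higher, beside 65.6% of all tested genes. Between 4-PBA and DMSO, 10 (8.47%) were called, 8 lower and 2 higher, beside 4.9% of all tested genes; with library size alone as the scaling this split was 6 lower and 4 higher. The count was 3 without 4-PBA replicate 1, 4 without 4-PBA replicate 2 and 5 with the DESeq2 Wald test. Leaving out either 4-PBA library ended the calls of Mafk, Maff, Nfe2l1, Osgin1 and Sesn3 described below, and Sesn2 was lost without 4-PBA replicate 1 or DMSO replicate 1. The median log2 fold change of the 118 was -0.26 for DMSO against day 0 and 0.012 for 4-PBA against DMSO.

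Of 15 tested regulators, 5 were called between 4-PBA and DMSO, beside 4.9% of all tested genes. All 5 were lower with 4-PBA: Bach1, Mafg, Mafk, Maff and Nfe2l1. The other 10 did not pass the test. Maff and Nfe2l1 are named because they complete this count, after their values were seen. Bach1, a heme-binding repressor that competes with Nrf2 for the same elements, had 64.7 and 61.1 CPM at day 0, 143 and 144 CPM in the DMSO libraries and 109 and 104 CPM in the 4-PBA libraries. The groups did not overlap: Bach1 rose at day 4 and stood lower with the drug than with the vehicle. The log2 fold change was 1.19 (SE 0.039, adjusted p = 2.25e-24) from day 0 to DMSO and -0.43 (SE 0.038, adjusted p = 2.59e-09) from DMSO to 4-PBA. This last difference was called in all 14 alternatives, with log2 fold changes from -0.46 to -0.39.

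Mafg, a small Maf that forms dimers with Nrf2, Nfe2l1 and Bach1 alike, had 165 and 167 CPM at day 0, 154 CPM in each DMSO library, and 135 and 141 CPM with 4-PBA. Its log2 fold change between 4-PBA and DMSO was -0.16 (SE 0.034, adjusted p = 0.00296), and it was called in 13 of 14 alternatives, the exception being the fit without 4-PBA replicate 1. Mafk, its close relative, rose from 39.6 and 38.2 CPM to 62.5 and 60.5 CPM with DMSO and stood at 55.2 and 54.3 CPM with 4-PBA. That difference of -0.17 (SE 0.046, adjusted p = 0.0269) was called in 10 of 14 alternatives. Maff and Nfe2l1, a relative of Nrf2 that drives proteasome genes, were less stable. Maff had a log2 fold change of -0.19 (adjusted p = 0.0402) and was called in 5 of 14 alternatives, and Nfe2l1 had -0.10 (adjusted p = 0.0375) and was called in 6. The 169 exon bases of Mafk that overlap Tmem184a on the opposite strand, and the 124 of Mafg that overlap Sirt7 on the same strand, limit these values. The ligase scaffold Cul3, also picked after its values were seen, was at 142 and 152 CPM at day 0, 139 and 143 CPM in the DMSO libraries and 142 and 139 CPM in the 4-PBA libraries; DMSO overlapped either other group, and there was no call in any of the 3 comparisons. The largest fall at day 4 among regulators with at least 5 CPM was in Palb2, a recombination protein that can bind Keap1, from 11.3 ± 0.96 CPM to 3.03 ± 0.46 CPM (SD, n = 2; log2 fold change -1.89, SE 0.13, adjusted p = 4.71e-15). Its value is limited too, since 414 exon bases of Palb2 overlap Gm16326 on the opposite strand.

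**Figure D4:**
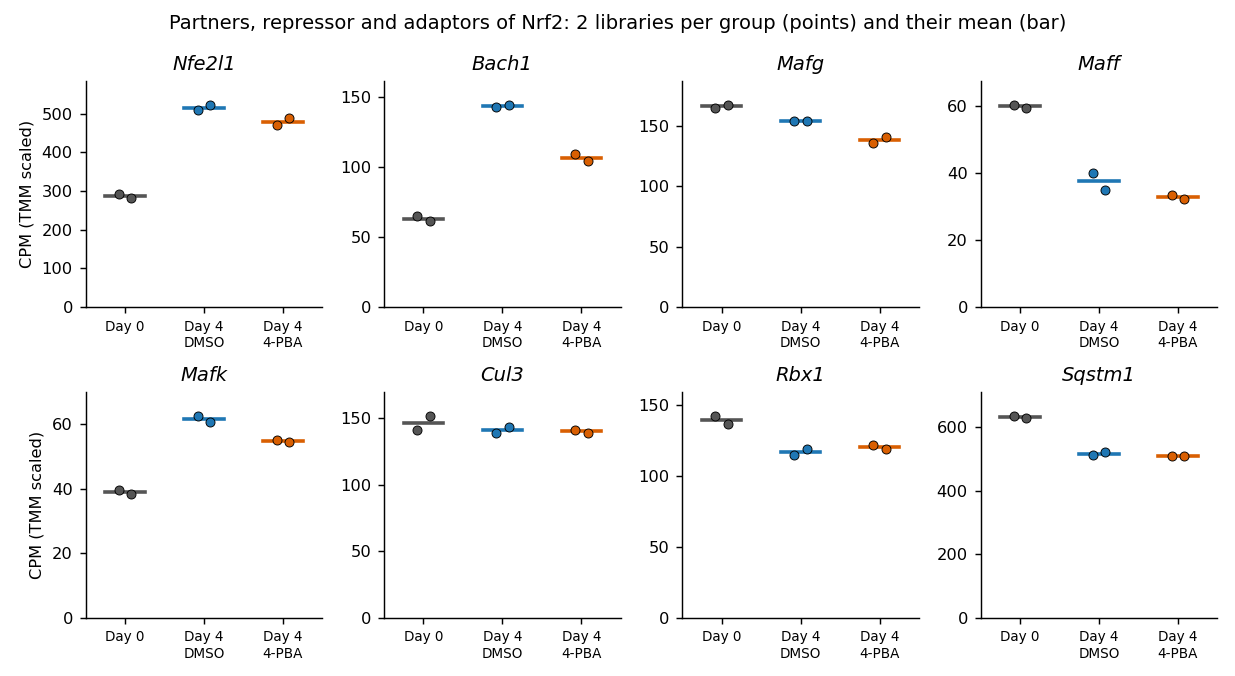
CPM after TMM scaling (y axis, starting at 0, a different scale in each panel) of 8 regulators of Nrf2; points are the 2 libraries of each group and bars their mean. The 4-PBA libraries of Bach1 lie at 109 and 104 CPM, between the day 0 and the DMSO libraries, whereas the DMSO libraries of Cul3 overlap those of either other group.

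The list for glutathione synthesis and cystine supply outside Gclc and Gclm showed no common fall. Not every gene of the list serves synthesis or supply. It also holds genes of glutathione breakdown and the gamma-glutamyl cycle, such as Chac1, Ggct and Oplah. Called between DMSO and day 0 were 50% of the 10 tested genes, beside 66.3% of all tested genes. Of the 10, 1 was called lower and 4 higher, beside 32.6% and 33.8% of all tested genes. The median log2 fold change was 0.13. The one that fell was Ggct, gamma-glutamylcyclotransferase, with a log2 fold change of -0.82 (SE 0.12, adjusted p = 4.70e-07). Oplah, the oxoprolinase of the gamma-glutamyl cycle, rose by 1.28 (SE 0.091, adjusted p = 1.10e-14), with 681 of its exon bases overlapping opposite-strand genes. Slc7a11, the cystine transporter subunit and a known Nrf2 target, was picked after its values were seen: it had a log2 fold change of 0.20 (adjusted p = 0.0684). Cth, the cystathionine gamma-lyase that makes cysteine, was the 1 gene of the 10 called between 4-PBA and DMSO, beside 4.9% of all tested genes. It had 5.76 and 6.47 CPM at day 0, 9.40 and 7.04 CPM in the DMSO libraries and 4.96 and 4.67 CPM in the 4-PBA libraries. The DMSO libraries were high and unequal, and the 4-PBA libraries lay under all others. The log2 fold change between 4-PBA and DMSO was -0.77 (SE 0.13, adjusted p = 0.000268), called in all 14 alternatives with values from -0.96 to -0.55. Chac1, which breaks down glutathione, had -0.15 (SE 0.064, adjusted p = 0.189).

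Of the 26 tested genes that use glutathione, 14 were called lower and 5 higher between DMSO and day 0, and 0 between 4-PBA and DMSO. The 73.1% called against day 0 stood beside 66.3% of all tested genes, 32.6% lower and 33.8% higher. Between 4-PBA and DMSO 4.9% of all tested genes were called. Gsta4, a glutathione transferase that acts on lipid aldehydes, fell from 62.2 ± 3.1 CPM to 11.4 ± 0.15 CPM (SD, n = 2; log2 fold change -2.44, SE 0.068, adjusted p = 1.77e-26). Glrx5, a mitochondrial glutaredoxin, fell by 0.69 on the log2 scale (SE 0.047, adjusted p = 3.57e-15). Gsta2 had a log2 fold change of -5.28 (adjusted p = 1.77e-17), from 4.57 and 5.21 CPM to 0.143 and 0.108 CPM, and stood at 0.274 and 0.370 CPM with 4-PBA. It has the near-identical paralog Gsta1, so its reads could have been divided between them. Gpx3, a secreted glutathione peroxidase, went the other way, with a log2 fold change of 1.60 (SE 0.12, adjusted p = 4.55e-14).

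The thioredoxin and peroxiredoxin list had 12 genes called lower and 3 higher of 18 tested between DMSO and day 0. This was 83.3% called, beside 66.3% of all tested genes, 32.6% lower and 33.8% higher. Txn1, the thioredoxin that Txnrd1 reduces, fell from 377 and 381 CPM to 173 and 174 CPM with DMSO and stood at 176 and 171 CPM with 4-PBA (log2 fold change with DMSO -1.13, SE 0.031, adjusted p = 1.30e-26). Prdx4, the peroxiredoxin of the endoplasmic reticulum, fell by 0.69 on the log2 scale (SE 0.044, adjusted p = 5.29e-16). Sesn3, a sestrin that acts on the mTORC1 pathway, rose from 20.4 and 22.1 CPM to 64.2 and 64.9 CPM with DMSO and had 72.9 and 71.4 CPM with 4-PBA. Between 4-PBA and DMSO, Sesn3 was higher by 0.16 (SE 0.046, adjusted p = 0.0352) and Sesn2 had -0.26 (SE 0.070, adjusted p = 0.0253). Sesn3 and Sesn2 were called in 9 and 11 of 14 alternatives. Sesn1, picked after its values were seen, had 0.16 (SE 0.066, adjusted p = 0.212) and was not called.

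NADPH is the electron donor for Nqo1, Gsr and Txnrd1. All 9 tested genes of the list drawn up for its supply were called between DMSO and day 0, 8 lower and 1 higher. Among all tested genes 66.3% were called, 32.6% lower and 33.8% higher. Not every gene of the list makes NADPH itself: it includes Pgls, Tkt and Taldo1 of the pentose phosphate pathway, and Me2, which works mainly with NAD. G6pdx, the first enzyme of the pentose phosphate pathway, fell from 136 and 138 CPM to 48.7 and 44.1 CPM (log2 fold change -1.56, SE 0.045, adjusted p = 3.43e-25), with 418 exon bases shared with Ikbkg on the opposite strand. Me2, a mitochondrial malic enzyme, fell from 115 and 114 CPM to 43.7 and 39.9 CPM (log2 fold change -1.46, SE 0.046, adjusted p = 4.95e-25). Me1 and Idh2 fell less, by 0.64 (SE 0.038) and 0.53 (SE 0.037) on the log2 scale. Idh1, the cytosolic isocitrate dehydrogenase, was the 1 that rose, by 0.30 (SE 0.036, adjusted p = 5.79e-09). Against the vehicle, 4-PBA gave 0 calls among these 9, beside 4.9% of all tested genes, with estimates from -0.016 to 0.097.

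In the list of quinone, carbonyl and drug detoxification and efflux, 13 of 22 tested genes were called lower and 5 higher between DMSO and day 0. This was 81.8% called, beside 66.3% of all tested genes, 32.6% lower and 33.8% higher. Aldh3a1, an aldehyde dehydrogenase, fell from 42.5 and 44.6 CPM to 6.80 and 8.86 CPM and stood at 8.04 and 8.99 CPM with 4-PBA (log2 fold change with DMSO -2.47, SE 0.090, adjusted p = 3.48e-18). Abcc4, an efflux pump for conjugates, fell by 1.84 on the log2 scale (SE 0.080, adjusted p = 4.81e-20). Ptgr1, a reductase of prostaglandins and unsaturated aldehydes, fell from 68.5 and 72.5 CPM to 40.1 and 40.5 CPM with DMSO but had 44.5 and 48.0 CPM with 4-PBA. Its drug against vehicle difference of 0.20 (SE 0.050, adjusted p = 0.0125) was called in 13 of 14 alternatives, the exception being the fit without 4-PBA replicate 2. Osgin1, an oxidative stress-induced growth inhibitor, had -0.28 (SE 0.083, adjusted p = 0.0400) and was called in 6. Ephx1, an epoxide hydrolase, had 0.13 (SE 0.039, adjusted p = 0.0521).

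Of 13 tested heme and iron genes, 10 were called lower and 1 higher between DMSO and day 0. This was 84.6% called, beside 66.3% of all tested genes, 32.6% lower and 33.8% higher. Ftl1, the ferritin light chain that stores iron released by Hmox1, fell from 777 and 766 CPM to 220 and 212 CPM with DMSO and had 227 and 221 CPM with 4-PBA. The log2 fold change with DMSO was -1.84 (SE 0.031, adjusted p = 5.21e-33). Ftl1 has processed copies elsewhere in the genome and shares exon bases with genes on both strands, so its reads could have been divided. The heavy chain Fth1 fell by only 0.28 (SE 0.030, adjusted p = 8.15e-10) and the transferrin receptor Tfrc by 0.84 (SE 0.038, adjusted p = 1.67e-19). Slc40a1, the iron exporter ferroportin, was the 1 that rose, from 2.26 and 3.08 CPM to 13.9 and 15.4 CPM (log2 fold change 2.43, SE 0.14, adjusted p = 8.74e-12). Against the vehicle, 4-PBA gave 0 calls among the 13, beside 4.9% of all tested genes. Estimates were positive for 12 of the 13 and for 8821 of the 17433 tested genes. The median was 0.081 for the 13 and 0.0021 over all tested genes. This difference was not tested.

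Of the 5 superoxide and hydrogen peroxide enzymes, 3 were called lower and 1 higher between DMSO and day 0, and 0 between 4-PBA and DMSO. The 80% called against day 0 stood beside 66.3% of all tested genes, 32.6% lower and 33.8% higher. Between 4-PBA and DMSO 4.9% of all tested genes were called. Sod1, the cytosolic superoxide dismutase, fell from 142 and 147 CPM to 85.8 and 88.1 CPM (log2 fold change -0.73, SE 0.037, adjusted p = 6.11e-19). Its copper chaperone Ccs rose by 0.23 (SE 0.053, adjusted p = 0.000279). Catalase, Cat, fell by 0.22 (SE 0.043, adjusted p = 2.90e-05).

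**Figure D5:**
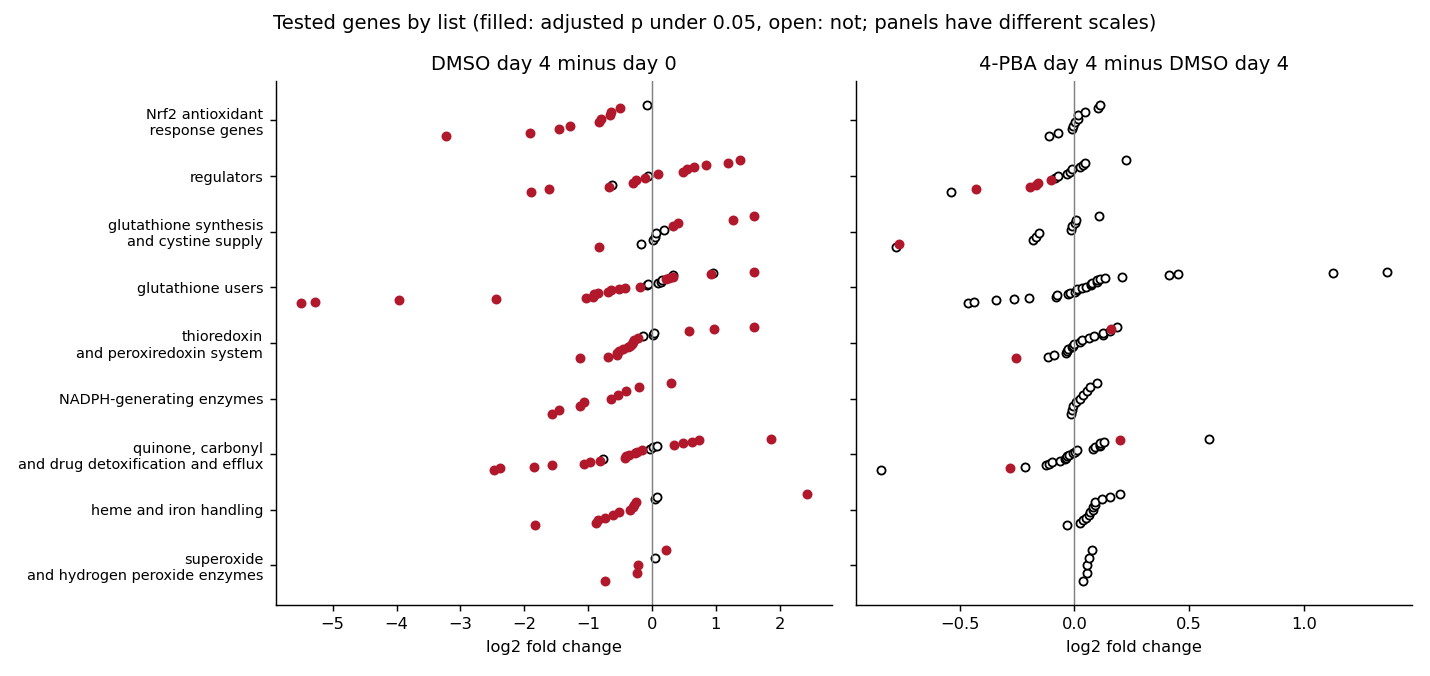
Log2 fold changes (x axis) of the tested genes of the 10 members and the 8 other lists (rows), DMSO against day 0 on the left and 4-PBA against DMSO on the right, on different scales; filled points passed an adjusted p under 0.05. On the left all 10 members lie under 0 and 9 are filled; on the right 0 members and 5 regulators are filled.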

How the data were processed

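The authors deposited 1 table of raw counts per gene symbol for 6 libraries, with whole numbers, no normalisation and no pooling of replicates. Reads were placed on GRCm39, per the submitters' processing notes, and libraries were made with a directional kit from DNase-treated total RNA, per the labels' protocols. The aligner, counter, annotation and strand setting are not given in the sources used here. The table had 43074 symbols, 13014 of them without counts. Total counts per library were 47908926 to 74697397, and the common biological coefficient of variation was 3.74%, to which counting error adds for genes with few counts, such as Nqo1 at day 4.

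The fit was made in edgeR 4.0.16 (R 4.3.3): filterByExpr (minimum count 10), TMM, estimateDisp and robust glmQLFit over all 6 libraries with 1 mean per group (3 residual degrees of freedom, median prior degrees of freedom 30.4). Contrasts were tested by quasi-likelihood F test, adjusted after Benjamini and Hochberg over the 17433 tested genes, and called means an adjusted p under 0.05. The standard error of a log2 fold change was computed as its absolute value over the root of F. The 95% intervals use the moderated degrees of freedom. Libraries of 1 group differed beyond counting noise (chi-square per degree of freedom 3.88 to 7.05).

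Exon lengths and overlaps come from GENCODE M21 and promoter windows from RefSeq, of the GRCm38 build. No other coordinates are printed. The exon length of a gene counts each base that lies in any of its annotated exons. The 10 genes and the lists were chosen with earlier results of these data known. Named besides the 10 were, of each list, the 3 genes with the smallest adjusted p between 4-PBA and DMSO and the 2 called genes with the largest change between DMSO and day 0 among those with at least 5 CPM. Of these 35 genes, 7 share exon bases with an opposite-strand gene and 3 with a same-strand gene. The 14 alternatives were: scaling by DESeq2 size factors or by library size; a filter of 1 count in all, or a stricter one (a mean of 1 CPM and 10 counts in each library of some group); the Wald test of DESeq2 1.42.0; voom of limma 3.58.1; a fit of the 4 compared libraries; a replicate block; and omission of each library in turn. The fit was also run on counts simulated from its own fitted means and dispersions. Such counts follow the fitted model, so the run cannot test whether that model holds for these data. Its outcome is not reported here. Plots were made in matplotlib 3.10.9 under Python 3.11.15.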

Additional observations from a re-analysis of the deposited data

How the results depend on the processing

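The counts of the 10 genes called against day 0 were 9 or 10 with DMSO and 10 with 4-PBA in all 14 alternatives; the tenth with DMSO was Nfe2l2, called with DESeq2 size factors, with library size only (adjusted p = 0.0104) and with only the 4 libraries compared (adjusted p = 0.0456). Between 4-PBA and DMSO, 1 of the 10, Nfe2l2, was called with the stricter filter, and 0 to 1 when a library was left out. The number of all genes called in that comparison ranged from 295 (without 4-PBA replicate 2) to 1194 (without DMSO replicate 1) against 855 with all libraries, and was 341 without 4-PBA replicate 1; the called other pathway genes ranged from 3 (without 4-PBA replicate 1) to 13, with 4 without 4-PBA replicate 2, and were 5 with the DESeq2 Wald test. Where a library was left out, its group's lone library was assumed to vary like the others. The uncalled estimates near 0 changed sign: Nqo1 was 0.0047 with library size only, and leaving out libraries gave -0.077 to 0.065 for Nqo1, -0.081 to 0.059 for Gclm, -0.0085 to 0.045 for Gsr, -0.00057 to 0.037 for Prdx1, -0.012 to 0.10 for Srxn1 and -0.019 to 0.029 for Txnrd1. The cause was not tested. Libraries with the same replicate number showed no shared shift across groups (correlations of replicate differences from -0.028 to -0.0031). Whether they were paired by culture cannot be read from these values. With the replicate block, 768 genes, 0 of the 10 and 7 other pathway genes were called between 4-PBA and DMSO, and 9 and 10 of the 10 against day 0.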
